A study of Lupinus albus with 12 samples.

Results

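The transcripts of roots were compared with those of leaves in white lupin (Lupinus albus L. var. Ultra) supplied with sufficient phosphorus. The comparison takes 6 of the 12 RNA sequencing libraries of the series, 3 from roots and 3 from leaves, each labelled as a biological replicate, and the other 6 come from plants with deficient phosphorus. Per the labels' protocols, the sufficient plants received 1 mM calcium phosphate, grew at 20 °C by day and 15 °C by night under a 16 h photoperiod, and were harvested 14 days after emergence. The deficient plants received 1 mM calcium sulfate instead, and their root samples are labelled proteoid roots, whereas the sufficient ones are labelled roots. Growth is described with nutrient solutions in one field of the labels and as soil in another. Neither the parts of the leaf or root taken nor whether plants were pooled is given in the sources used here, so P-values measure the spread between these libraries. The deposited table lists 125535 assembled sequences with 1 value per library, taken to be RPKM (reads relative to the length of the sequence and the size of the library). Those with 1 RPKM or more in any 3 of the 6 libraries, 75717 sequences (60.3%), were tested.

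Roots and leaves divide the work of a plant. Leaf mesophyll cells hold chloroplasts, in which light-harvesting antennae feed the photosystems, the Calvin cycle fixes carbon dioxide with RuBisCO, and photorespiration recovers the carbon that RuBisCO loses to oxygen. The leaf surface carries a wax cuticle broken by stomata. Roots take up water and ions through hairs and outer cells, and the endodermis, with its lignified Casparian strip and suberin, controls what enters the xylem. Roots obtain carbon from the shoot and respire it, and legume roots also make isoflavonoids and can form nodules with nitrogen-fixing bacteria. White lupin is known for its cluster roots, which it forms when phosphorus is scarce. In samples of mixed cell types such as these, fewer cells of a type and less RNA per cell cannot be told apart.

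The summed markers of each tissue were higher in the libraries labelled with it, although single markers went both ways. Sequences that mark leaf mesophyll (111 in the table) summed to 111173.3 to 132492.8 RPKM in leaf libraries and to 365.1 to 440.1 in root libraries, and 40 of them were at 0 in every root library. Of the 103 tested, 82 were higher in leaf and 11 in root. Guard cell markers had 20 of 25 higher in leaf and 4 in root, and leaf polarity markers 27 of 60 higher in leaf, 3 in root and 30 not called. Root meristem and cap markers (16 sequences) summed to 19.3 to 43.6 RPKM in roots and 0.0 to 0.5 in leaves, and markers of root hairs (14 sequences) to 97.4 to 139.5 and 7.5 to 14.8. Markers of seeds, which neither sample should hold, summed to 2460.2 to 4825.8 RPKM in roots and 1003.1 to 1693.0 in leaves. That list takes in sequences described as seed storage or lipid transfer proteins, a description that many tissues share. Its part in the results was not tested.

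Replicate 1 stood apart in both tissues. Per the labels' protocols, each replicate 1 library filled a sequencing lane without a barcode, while replicates 2 and 3 carried barcodes and shared lanes in pairs. Tissue made up the first principal component of the 6 libraries (86.8% of the variance), and the second (7.7%) set replicate 1 of root and leaf apart from the other 4. Over the tested sequences, root replicates 2 and 3 correlated at 0.978 (Pearson, log2 values) and replicate 1 correlated with them at 0.916 and 0.891. Leaf replicates 2 and 3 correlated at 0.948, and leaf replicate 1 at 0.914 and 0.860 with them. Each replicate 1 library was closest to the replicate 1 library of the same tissue in deficient plants, at 0.932 for root and 0.974 for leaf. The balance of 12 clock sequences that peak in the morning over 44 that peak in the evening, as known in Arabidopsis, was −0.02 (log2) in root replicate 1 and −1.77 and −1.94 in root replicates 2 and 3. In leaves it was 1.87 in replicate 1 and −1.52 and −1.50 in the others. Both tissues have 1 library of the unbarcoded kind, so this split does not follow the groups, and the part of the clock and of the run in the results was not tested.

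At an adjusted p below 0.05 (limma on log2(RPKM + 0.5), adjusted by Benjamini and Hochberg over all tested sequences), 39934 sequences differed between root and leaf, 52.7% of those tested. They comprised 23228 higher in root (30.7%) and 16706 higher in leaf (22.1%), which are the shares that each gene group below is read against. Every root library lay above every leaf library for 35.5% of the sequences, and the reverse held for 24.5%. Among the calls, 4902 were at least 8-fold higher in root and 4555 at least 8-fold higher in leaf, whereas differences of at least 100-fold numbered 218 in root and 454 in leaf. The filter was passed in every root library and no leaf library by 8074 sequences, of which 7884 were called, and in every leaf library and no root library by 7593, of which 7471 were called. Such sequences had to differ, so counts of calls describe the groups and are no independent support. With the barcoded libraries alone, 25551 were higher in root and 20986 in leaf. The median difference of all tested sequences was 0.20 (log2, root minus leaf), and it was 0.05 to 0.06 after scaling by TMM, medians of ratios or quantiles, so values below are relative to that shift.

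**Figure D1:**
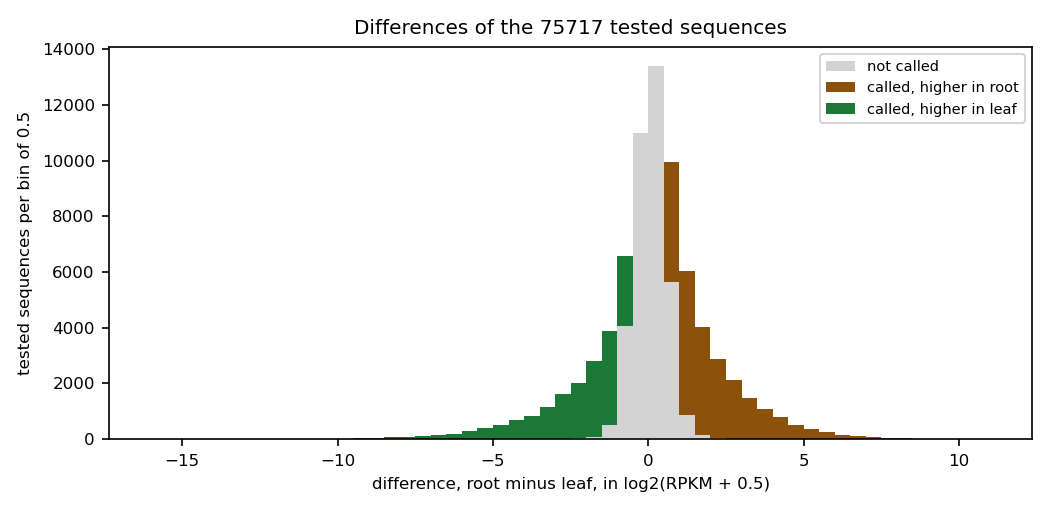
Histogram of the difference between root and leaf for the 75717 tested sequences, in log2(RPKM + 0.5) and bins of 0.5, with called sequences in brown (higher in root) and green (higher in leaf) stacked on those not called in grey. The root side holds more calls, 23228 against 16706, and the leaf side reaches farther, to −15.25.

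Leaf RNA was concentrated in fewer sequences than root RNA. The 20 most abundant sequences held 15.13% to 17.91% of the summed RPKM of a leaf library and 4.77% to 6.04% of that of a root library. The sequences needed to reach 50% of the sum numbered 1372 to 1873 in leaves and 3452 to 3874 in roots. Photosynthesis, by the deposited MapMan classes, took 19.7% ± 2.56 (SD, n = 3) of the sum in leaves and 0.223% in roots. Its light reactions made up 11.3% in leaves against 0.0445% in roots, and the Calvin cycle 7.61% against 0.126%. Protein synthesis took 9.31% in leaves and 6.02% in roots. Several classes took larger shares in roots, among them transport (5.09% against 2.33% in leaves), stress (4.17% against 2.37%), secondary metabolism (3.01% against 1.22%) and hormone metabolism (2.64% against 0.851%). Glycolysis held 1.59% in roots and 0.608% in leaves, and fermentation 0.572% and 0.0761%. The libraries of root and leaf did not overlap in these classes except in protein synthesis, in which 1 root library lay within the leaf range. Sequences without an assigned class held 30.2% in roots and 30.3% in leaves.

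**Figure D2:**
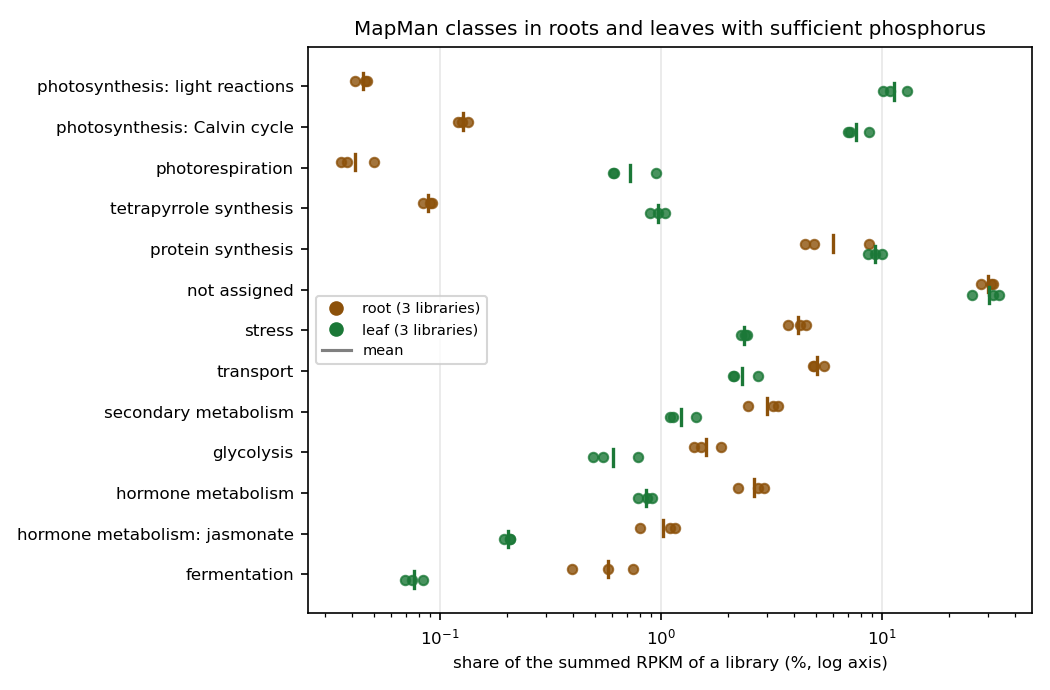
Share of the summed RPKM of each library held by 13 MapMan classes, on a log axis, with 1 point per library (3 root libraries in brown, 3 leaf libraries in green) and a bar at each mean. The photosynthetic classes lie far higher in leaves than in roots (light reactions, 11.3% against 0.0445%), and fermentation, hormone metabolism and transport lie higher in roots.

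The RuBisCO small subunit had the highest mean level in leaves among sequences with an informative description. A sequence named RuBisCO small chain 2B (LAGI01_69646) stood at 38688.1, 24746.3 and 25997.8 RPKM in the 3 leaf libraries and at 0.5, 0.2 and 0.1 in the roots. Its difference of −15.25 (SE 0.344, adjusted p = 1.41e-06) had the largest size among the named sequences. The small chain 1B (LAGI01_65894) reached 22359.1, 28136.1 and 30525.8 RPKM in leaves and 0.6, 3.4 and 2.5 in roots. Between these small chains in mean leaf level lay CAB1 (LAGI01_53674), a chlorophyll a/b-binding protein of the main antenna. It had 32071.7, 29155.3 and 24410.8 RPKM in leaves and 41.4, 32.5 and 34.0 in roots. CAB1 was thus detected in every root library at a low level beside its leaf level, and its difference was −9.61 (SE 0.384, adjusted p = 2.38e-06). FED A (LAGI01_72487), the ferredoxin that carries electrons from photosystem I, had 5806.1, 5295.0 and 5886.7 RPKM in leaves and 0.6, 0.4 and 0.2 in roots.

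All 53 tested members of the light-harvesting antenna (of 57 in the table) were higher in leaf, with a median difference of −7.08, and 38 of them passed the filter in leaves only. Their summed level was 62.2 RPKM in roots and 55251 in leaves on average, an 889-fold ratio. LHCA4 of photosystem I (LAGI01_60095) had 2426.4, 2362.3 and 2306.0 RPKM in leaves and 1.4, 0.0 and 0.1 in roots. Of 214 tested photosystem and electron transport subunits, 192 were higher in leaf and 1 in root, with a median of −5.41. PSAG of photosystem I (LAGI01_90086) had 2646.6, 2170.5 and 1871.4 RPKM in leaves and 0.2, 0.0 and 0.0 in roots. PSAF was at 2761.5, 2415.7 and 2553.8 RPKM in leaves, and PSBW, a small photosystem II subunit, at 2716.1, 2386.3 and 2220.7. The member higher in root was ATFD3 (LAGI01_81335), a ferredoxin of non-green plastids in Arabidopsis, at 61.8, 97.4 and 79.0 RPKM in roots and 10.7, 8.0 and 10.1 in leaves.

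Carbon fixation followed the same direction with more exceptions. Among 158 tested Calvin cycle sequences (of 172), 122 were higher in leaf and 29 in root, with a median of −3.68. RCA (LAGI01_101036), the RuBisCO activase, had 2050.4, 1325.3 and 1534.9 RPKM in leaves and 0.0, 0.0 and 0.3 in roots. SBPASE (LAGI01_86544), the sedoheptulose bisphosphatase of the cycle, was chosen after its values were seen. It was at 0.0 in all 3 root libraries and at 913.9, 575.5 and 490.9 RPKM in leaves. The members higher in root included enzymes that also serve other pathways, such as a transketolase (LAGI01_64432, 220.5, 246.6 and 250.9 RPKM in roots and 34.5, 34.6 and 32.9 in leaves). They also included LAGI01_34427, matched to the soybean entry RUAP_SOYBN (RuBisCO-associated protein), at 80.6, 88.6 and 72.0 RPKM in roots and 0.0, 0.1 and 0.0 in leaves.

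Of 100 tested photorespiration sequences, 79 were higher in leaf and 9 in root. A glycine cleavage H protein (LAGI01_66573), part of the mitochondrial complex that splits glycine, had 988.2, 721.4 and 761.5 RPKM in leaves and 0.7, 0.4 and 0.5 in roots. Another sequence of the same description (LAGI01_61789) ran the other way, with 21.1, 19.9 and 21.2 RPKM in roots and 3.0, 3.9 and 6.2 in leaves. Glycolate oxidase showed the same split. LAGI01_92341 had 1079.6, 649.3 and 588.3 RPKM in leaves against 1.8, 0.0 and 1.0 in roots, and LAGI01_31566 had 32.4, 26.7 and 23.4 in roots against 1.8, 1.3 and 0.9 in leaves.

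Chlorophyll and haem share a pathway, and 142 of its 183 tested sequences were higher in leaf and 22 in root. CRD1 (LAGI01_56029), a cyclase of the chlorophyll branch, had 997.8, 947.6 and 983.4 RPKM in leaves and 2.7, 1.5 and 1.3 in roots. PORA, a protochlorophyllide reductase, had 814.5, 1194.6 and 1133.3 RPKM in leaves and 2.6, 2.4 and 3.4 in roots. Ferrochelatase, which puts iron into haem, was split by isoform. All 6 FC1 sequences were higher in root and all 14 FC2 sequences higher in leaf, and their summed levels were 103 against 29.7 RPKM for FC1 and 13.9 against 108 for FC2.

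Carotenoid and other plastid isoprenoid synthesis was divided more evenly, with 104 of 228 tested sequences higher in leaf and 83 in root (median −0.23). LUT2, the lycopene epsilon cyclase, had 78.0, 77.3 and 65.5 RPKM in leaves and 1.1, 1.1 and 1.2 in roots. CLA1, the entry enzyme of the plastid isoprenoid pathway, was abundant in roots: LAGI01_42520 had 268.0, 330.8 and 353.2 RPKM there and 0.6, 0.8 and 0.8 in leaves (adjusted p = 1.46e-06). HDS, a later enzyme of the pathway, had a sequence (LAGI01_30592) at 110.7, 234.6 and 264.3 RPKM in roots and 1.8, 1.9 and 1.8 in leaves.

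Starch metabolism was higher in leaf for 129 of 206 tested sequences and in root for 33. APE2 (LAGI01_28107), the triose phosphate translocator of the chloroplast envelope, had 1262.9, 784.5 and 783.7 RPKM in leaves and 1.7, 2.9 and 1.8 in roots. APL1, a large subunit of ADP-glucose pyrophosphorylase, had 55.7, 55.5 and 57.7 RPKM in leaves and 0.0, 0.1 and 0.1 in roots. AMY1, an alpha-amylase, went the other way, with 6.8, 14.8 and 16.2 RPKM in roots and 0.3, 0.3 and 0.1 in leaves. Among plastid ribosomal proteins 99 of 135 were higher in leaf and 3 in root, with a median of −4.78.

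Genes of the leaf surface and its pores were mostly higher in leaf. In the cuticle and wax list, 22 of 31 tested sequences were higher in leaf and 5 in root. Of the 31, 21 passed the filter in leaves only and 1 in roots only. CER3 (LAGI01_68905), an enzyme of wax alkane synthesis, had 75.1, 58.3 and 52.2 RPKM in leaves and 0.1, 0.0 and 0.0 in roots. KCS6, which elongates the fatty acids of wax, was at 34.2, 50.7 and 68.1 RPKM in leaves and at 0.0 in every root library. Of 27 tested stomatal and guard cell sequences (of 42 in the table), 25 were higher in leaf and none in root, and 2 were not called. The levels were low, and 24 passed the filter in leaves only. This list was adapted after descriptions were read, whereas the guard cell markers given above had 4 of 25 higher in root. MYB60, a guard cell transcription factor, had 8.6, 10.8 and 8.9 RPKM in leaves and 0.1, 0.1 and 0.0 in roots. SDD1, a protease that limits stomatal density, had 8.4, 8.1 and 6.3 RPKM in leaves.

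Leaf polarity and growth factors were higher in leaf for 59 of 121 tested sequences and in root for 8. Of the 121, 49 passed the filter in leaves only and 6 in roots only. AS1 (LAGI01_32790), which sets leaf cell fate, had 28.9, 28.5 and 21.9 RPKM in leaves and 0.8, 0.5 and 0.2 in roots. YAB2, a YABBY factor of the lower leaf side, had 8.6, 20.7 and 33.0 RPKM in leaves and 0.0, 0.1 and 0.0 in roots. By MapMan family, 35 of 54 TCP factors were higher in leaf and 4 in root (median −2.21), and 50 of 88 CONSTANS-like factors were higher in leaf and 4 in root (median −1.84). Of 55 pseudo-response regulator sequences, a family that includes clock genes, 36 were higher in leaf and none in root (median −1.15). Replicate 1 differed from the other libraries in its clock balance, as given above, and its part in that count was not tested. Light receptors and signalling were higher in leaf for 132 of 335 and in root for 67. PHR2, of the photolyase family, had 192.9, 172.5 and 163.5 RPKM in leaves and 22.0, 16.7 and 12.3 in roots.

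**Figure D3:**
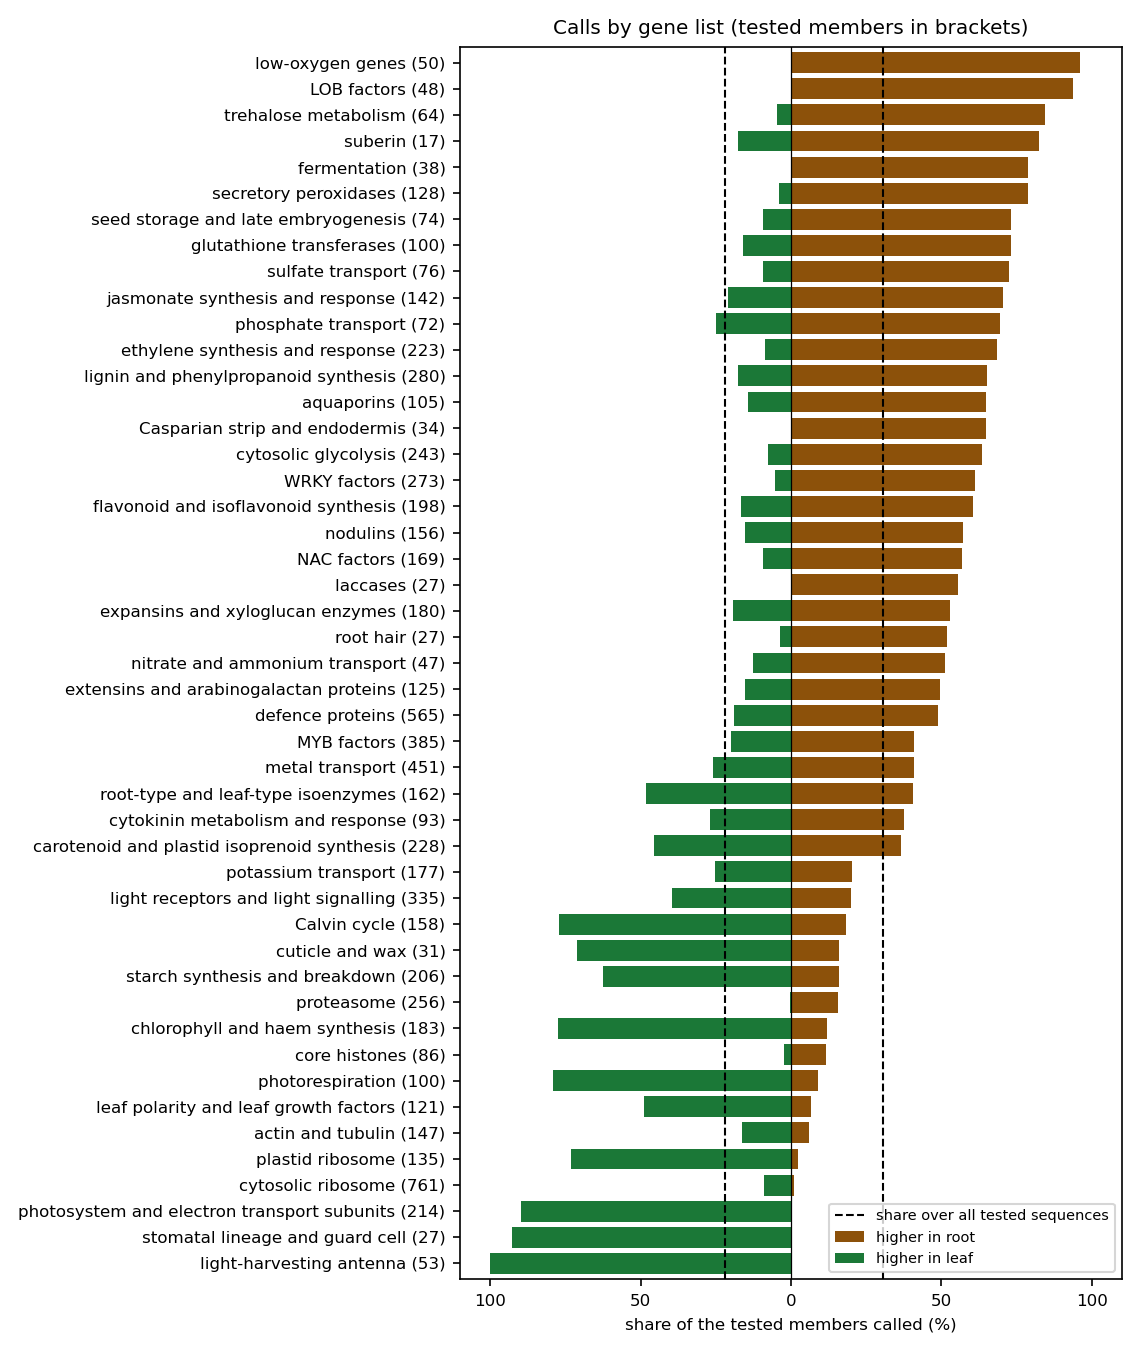
Share of the tested members of each gene list called higher in root (brown, to the right) or higher in leaf (green, to the left), for lists of 15 or more tested members, whose number is in brackets. The dashed lines mark the shares over all tested sequences, 30.7% and 22.1%, and the lists run from low-oxygen genes (96% higher in root) to the light-harvesting antenna (100% higher in leaf). Some lists share members, and the low-oxygen list was added after values were seen.

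In roots the highest mean level among sequences with an informative description belonged to a defence protein. LAGI01_30475, matched to the pea disease resistance response entry DRR4_PEA, had 3122.0, 4929.6 and 4939.6 RPKM in roots and 21.5, 121.2 and 222.8 in leaves, a difference of 5.65 (SE 0.825, adjusted p = 8.38e-04). CYP93D1 (LAGI01_27229), a cytochrome P450, had 724.4, 1425.1 and 1219.6 RPKM in roots and 98.6, 155.5 and 118.2 in leaves. ADH1 (LAGI01_38999), the alcohol dehydrogenase of fermentation, had 705.7, 1031.0 and 1482.0 RPKM in roots and 15.9, 7.2 and 9.9 in leaves. PDR12, an ABC transporter, had 335.7, 1460.1 and 1395.3 RPKM in roots and 15.6, 37.5 and 138.6 in leaves. Among the 8 most abundant root sequences were also EF-1-alpha, UBQ4 and GAPC1, which every cell uses. EF-1-alpha had 2375.9, 833.9 and 681.8 RPKM in roots and 1757.4, 1387.6 and 1178.3 in leaves, and UBQ4 1613.9, 902.5 and 924.4 against 1223.8, 391.9 and 258.7. Neither of these 2 sequences was called (adjusted p = 0.624 and 0.17), and their replicate 1 libraries were the highest of each tissue. This UBQ4 sequence was called higher in root without leaf replicate 1 (adjusted p = 0.0169) and with the barcoded libraries alone (adjusted p = 0.00913). Of 18 tested sequences named UBQ4, 13 were higher in root and none in leaf. Summed, that name came to 3988.5, 3744.2 and 3902.7 RPKM in roots and 2131.1, 890.7 and 657.0 in leaves. Of 34 tested sequences named EF-1-alpha, 5 were higher in root and 1 in leaf. GAPC1, a cytosolic glycolytic dehydrogenase, was called higher in root by 2.03 (adjusted p = 0.0228), but not without root replicate 1, leaf replicate 2 or leaf replicate 3 (adjusted p = 0.0577 to 0.0878).

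The largest differences in favour of root came from sequences all but absent in leaves. A lipid transfer protein (LAGI01_58509) had 1457.5, 476.1 and 432.8 RPKM in roots and 0.2, 0.1 and 0.7 in leaves, a difference of 9.72 (SE 0.513, adjusted p = 6.42e-06). A quinone reductase (LAGI01_75000) had 426.0, 583.2 and 561.7 RPKM in roots and 0.3, 0.1 and 0.0 in leaves. An early nodulin-related sequence (LAGI01_71342) had 283.6, 730.9 and 937.6 in roots and 0.0, 0.2 and 0.5 in leaves. DOX1 (LAGI01_84764), a fatty acid dioxygenase of the defence response, had 175.4, 930.1 and 852.7 RPKM in roots and 0.4, 0.2 and 0.2 in leaves. In the quinone reductase, the nodulin-related sequence and DOX1, root replicate 1 was the lowest root library. ATOSM34, an osmotin of the thaumatin family, had 613.9, 658.7 and 616.2 RPKM in roots and 0.0, 0.9 and 0.8 in leaves. CKX3 and CKX2 both degrade cytokinin. CKX3 had 154.8, 193.1 and 218.1 RPKM in roots and 0.0, 0.1 and 0.0 in leaves, and CKX2 had 69.5, 197.6 and 212.4 in roots and 0.0 in every leaf library. CKX2 and CKX3 belong to the cytokinin list, in which 35 of 93 tested sequences were higher in root and 25 in leaf.

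**Figure D4:**
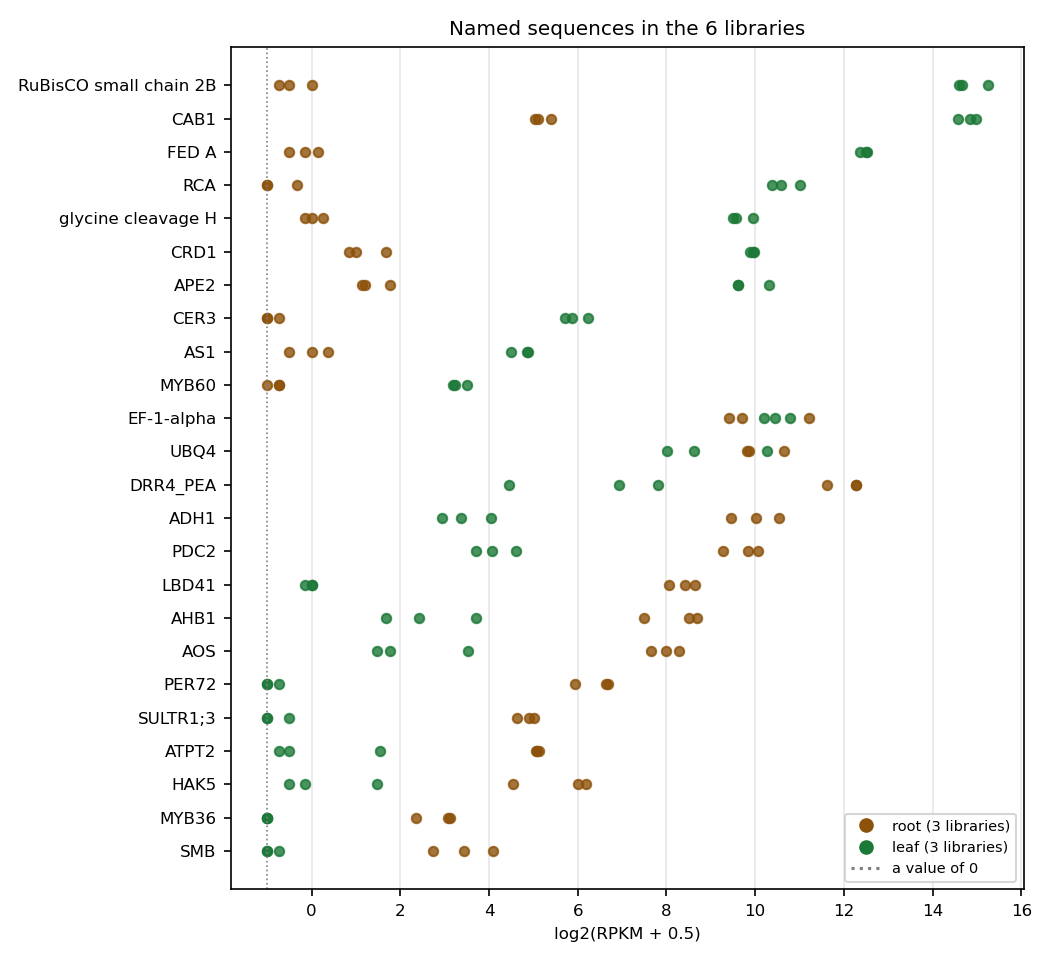
Levels of 24 named sequences in log2(RPKM + 0.5), with 1 point per library (3 root libraries in brown, 3 leaf libraries in green) and a dotted line at a value of 0. The groups do not overlap in any row but EF-1-alpha and UBQ4, the only rows not called. Most rows were named because they were called, so this follows largely from the choice. Over all tested sequences, every root library lay above every leaf library for 35.5%, and the reverse held for 24.5%.

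Genes for the uptake of nutrients differed by ion. Sulfate transporters were higher in root for 55 of 76 tested sequences and in leaf for 7. Of the 76, 35 passed the filter in roots only and 1 in leaves only. SULTR1;3 (LAGI01_86851), a high-affinity transporter, had 24.3, 29.4 and 31.6 RPKM in roots and 0.2, 0.0 and 0.0 in leaves. SULTR3;1, known in Arabidopsis chloroplasts, was higher in leaf, at 16.2, 11 and 12.2 RPKM against 2.8, 3.5 and 2.8. Among 72 phosphate transport sequences, 50 were higher in root and 18 in leaf. The filter was passed in roots only by 41 of the 72 and in leaves only by 9, and such sequences had to differ. PHT5 had 88.1, 142.1 and 130.3 RPKM in roots and 5.7, 10.6 and 13.1 in leaves, and ATPT2, an uptake transporter, had 34.3, 33.5 and 32.9 in roots and 0.2, 0.1 and 2.4 in leaves. The members higher in leaf included the plastid transporters PHT2;1 (34.9, 20.2 and 16.5 RPKM in leaves, 1.1, 1.4 and 2.5 in roots) and PHT4;1 (18.6, 18.5 and 21.5 in leaves, 3.0, 2.0 and 3.3 in roots).

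For nitrate and ammonium, 24 of 47 tested sequences were higher in root and 6 in leaf. WR3 (LAGI01_54539), a partner protein of high-affinity nitrate uptake, had 79.8, 62.8 and 45.7 RPKM in roots and 0.9, 0.3 and 0.5 in leaves. ATNRT2.4 was called higher in root (3.81, SE 0.816, adjusted p = 0.00569), although root replicate 1 at 63.1 RPKM was far above replicates 2 and 3 at 8.7 and 5.9. ATAMT1;2, an ammonium transporter, was at 0.0 in every root library and at 32.4, 27.4 and 23.6 RPKM in leaves. Potassium transport showed no such lean, with 36 of 177 higher in root (20.3%, below the 30.7% of all sequences) and 45 higher in leaf. HAK5, a high-affinity uptake transporter, had 22.7, 64.1 and 72.9 RPKM in roots and 0.4, 0.2 and 2.3 in leaves, and KEA3, a thylakoid exchanger, had 14.4, 11.7 and 12.1 in leaves and 0.3, 0.2 and 0.2 in roots. Metal transport and binding was higher in root for 184 of 451 and in leaf for 117. MT3, a metallothionein, had 123.3, 190.3 and 157.5 RPKM in roots and 50.3, 5.5 and 8.9 in leaves.

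Aquaporins, the water channels of the plasma membrane and vacuole, were higher in root for 68 of 105 tested sequences and in leaf for 15. GAMMA-TIP of the vacuole had 1260.9, 548.2 and 492.5 RPKM in roots and 184.6, 93.7 and 80.0 in leaves. DELTA-TIP was higher in leaf, at 177.1, 89.8 and 88.3 RPKM against 10.3, 3.7 and 2.0. In both the replicate 1 libraries were the highest of each tissue, and the tissues did not overlap.

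The barriers of the root were represented by their regulators and enzymes. In the Casparian strip and endodermis list, 22 of 34 tested sequences (of 48) were higher in root and none in leaf, and 12 were not called. Of the 34, 15 passed the filter in roots only. MYB36 (LAGI01_72000), which switches on Casparian strip genes, had 4.6, 7.9 and 8.2 RPKM in roots and 0.0 in every leaf library. Suberin genes were higher in root for 14 of 17 tested sequences and in leaf for 3. Of the 17, 13 passed the filter in roots only and 3 in leaves only. GPAT5 had 6.8, 9.3 and 7.3 RPKM in roots and 0.9, 0.0 and 0.0 in leaves, and CYP86A1, a fatty acid hydroxylase, 5.8, 8.2 and 7.3 against 0.7, 0.1 and 0.0. FAR4, a fatty acyl reductase of the same list, was higher in leaf, at 2.4, 4.7 and 6.3 RPKM against 0.0 in every root library.

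Secretory peroxidases, which polymerise lignin and act on cell walls, were higher in root for 101 of 128 tested sequences and in leaf for 5, with a median of 3.33. Of the 128, 60 passed the filter in roots only and 2 in leaves only. PER72 (LAGI01_63977) had 60.7, 102.3 and 98.8 RPKM in roots and 0.1, 0.0 and 0.0 in leaves, and PER30 86.8, 83.2 and 76.0 against 0.2, 0.4 and 0.1. Lignin and phenylpropanoid synthesis was higher in root for 182 of 280 and in leaf for 49. The entry enzyme PAL1 (LAGI01_38111, listed as pal1) had 148.3, 336.8 and 338.9 RPKM in roots and 24.2, 15.7 and 22.5 in leaves. Laccases, which oxidise lignin monomers, were higher in root for 15 of 27 and in leaf for none. LAC3 had 39.4, 26.6 and 22.1 RPKM in roots and 0.0 in every leaf library.

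Root hair and root cap genes were at lower summed levels than the cell wall growth genes, at 182 and 29.2 RPKM in roots against 3349 for expansins and xyloglucan enzymes. These sums run over lists of unlike size, 28 and 16 sequences against 197. Of 27 tested root hair sequences 14 were higher in root and 1 in leaf. RHD2 (LAGI01_8295), the NADPH oxidase of hair growth, had 50.1, 88.5 and 95.7 RPKM in roots and 0.5, 2.1 and 4.6 in leaves. The member higher in leaf was another sequence named RHD2 (LAGI01_93983), at 2.7, 3.0 and 4.7 RPKM against 0.6, 0.5 and 0.9. Of 16 meristem and cap sequences in the table only 4 passed the filter. These 4 were higher in root, but all of them passed in roots only and so had to differ. SMB, a root cap factor, had 16.6, 6.2 and 10.4 RPKM in roots and 0.1, 0.0 and 0.0 in leaves. The 1 tested sequence of each of the stem cell factors PLT1 and PLT2 reached no more than 3.2 and 4.8 RPKM in any root library. Summed over all sequences of the name, PLT1 came to 10.2, 2.9 and 3.5 RPKM in roots and PLT2 to 4.0, 4.3 and 6.6. Cell wall loosening genes (expansins and xyloglucan enzymes) were higher in root for 95 of 180 and in leaf for 35. ATEXLA2 (LAGI01_46496) had 124.0, 169.1 and 187.2 RPKM in roots and 3.7, 3.3 and 5.1 in leaves, and ATEXLB1 had 51.0, 33.2 and 36.8 in leaves and 0.0 in every root library. Extensins and arabinogalactan proteins were higher in root for 62 of 125 and in leaf for 19. FLA9 had 219.5, 93.2 and 78.8 RPKM in roots and 6.7, 4.6 and 8.4 in leaves, whereas PRP4 had 195.6, 39.2 and 32.6 in leaves and 0.0 in roots.

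Flavonoid and isoflavonoid synthesis was higher in root for 120 of 198 tested sequences and in leaf for 33. TT4 is chalcone synthase, the entry enzyme. LAGI01_69633 of that name had 922.0, 1100.5 and 1015.7 RPKM in roots and 257.1, 200.7 and 237.1 in leaves. F3H, a later enzyme towards flavonols, went the other way, at 243.4, 127.4 and 160.1 RPKM in leaves and 0.3, 0.1 and 0.2 in roots. MYB12, a regulator of flavonol synthesis in Arabidopsis, was at 0.0 in every root library and at 12.8, 30.1 and 16.2 RPKM in leaves.

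Sequences described as nodulins, a name given to proteins first found in legume nodules, were higher in root for 89 of 156 and in leaf for 24. The labels do not mention nodules or inoculation. Haemoglobins were higher in root for 8 of 9 tested sequences and in leaf for none. The non-symbiotic AHB1 (LAGI01_62577) had 180.8, 365.1 and 414.1 RPKM in roots and 2.7, 4.9 and 12.5 in leaves. CYP711A1, of strigolactone synthesis, was the 1 tested sequence of its list and had 6.0, 5.0 and 5.1 RPKM in roots and 2.4, 0.5 and 1.6 in leaves. Its call (adjusted p = 0.00751) was lost when differences were tested against a minimum of 2-fold.

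Fermentation and glycolysis were chosen as lists after values were seen, as were jasmonate, ethylene, trehalose, glutathione transferases and low-oxygen genes below, and their counts are descriptions. Of 38 tested fermentation sequences 30 were higher in root and none in leaf, with a median of 4.01. Pyruvate decarboxylase PDC2 (LAGI01_19332), which feeds alcohol dehydrogenase, had 618.6, 913.8 and 1073.2 RPKM in roots and 24.0, 16.4 and 12.5 in leaves. PDC3 had 153.5, 201.2 and 297.6 RPKM in roots and 6.6, 4.3 and 3.4 in leaves. Sequences found by the names of genes that respond to low oxygen in Arabidopsis (such as ADH1, PDC2, AHB1 and LBD41) were higher in root for 48 of 50 tested and in leaf for none, and 2 were not called. Summed, they came to 5001.0, 7700.7 and 9838.1 RPKM in roots and 254.3, 187.6 and 222.5 in leaves. Root replicate 1 was the lowest root library in this sum, and the oxygen status of the roots is not given in the sources used here. The low-oxygen list shares names with the fermentation list (PDC2), the haemoglobins (AHB1) and the lateral organ boundaries factors (LBD41). The counts of these lists are thus not separate results. Cytosolic glycolysis was higher in root for 154 of 243 and in leaf for 19. A phosphoglycerate mutase (LAGI01_19580) had 303.0, 329.0 and 429.4 RPKM in roots and 88.1, 67.7 and 66.8 in leaves.

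In the jasmonate and ethylene lists, 70.4% and 68.6% of the tested members were higher in root, against 30.7% of all tested sequences. The shares higher in leaf were 21.1% and 8.52%, against 22.1%. Jasmonate synthesis and response sequences were higher in root for 100 of 142 tested and in leaf for 30, with a median of 2.58. The name LOX1 alone had 41 tested sequences, 39 higher in root and 2 in leaf. All 12 sequences named LOX2 were higher in leaf, and OPR2 had 9 of 13 higher in root and 3 in leaf. AOS had 9 of 12 higher in root and none in leaf. AOC3 had 3 of 6 higher in root and 2 in leaf, and AOC4 1 of 5 and 2. AOS (LAGI01_27462), allene oxide synthase, had 199.6, 312.9 and 254.6 RPKM in roots and 2.9, 2.3 and 11 in leaves. Of the lipoxygenases, LOX1 had 858.9, 720.4 and 686.9 RPKM in roots and 164.4, 141.1 and 113.5 in leaves. LOX2, the chloroplast enzyme of jasmonate synthesis in Arabidopsis, had 52.2, 103.7 and 96.1 RPKM in leaves and 0.2, 1.5 and 1.4 in roots. Ethylene synthesis and response was higher in root for 153 of 223 and in leaf for 19. EFE, an ACC oxidase that makes ethylene, had 149.2, 229.3 and 197.9 RPKM in roots and 6.8, 2.1 and 2.8 in leaves.

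Trehalose metabolism was higher in root for 54 of 64 and in leaf for 3. ATTPS11, of the trehalose phosphate synthase family, had 14.0, 51.0 and 75.8 RPKM in roots and 1.4, 2.3 and 2.6 in leaves. Glutathione transferases were higher in root for 73 of 100 and in leaf for 16. ATGSTU8 had 601.8, 1003.7 and 1194.5 RPKM in roots and 70.6, 66.9 and 101.8 in leaves. Root replicate 1 was the lowest root library in both.

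Defence proteins were higher in root for 277 of 565 tested sequences and in leaf for 108. A dirigent-related protein (LAGI01_63252) had 336.2, 537.6 and 551.8 RPKM in roots and 7.5, 6.8 and 8.5 in leaves. Seed storage and late embryogenesis proteins were higher in root for 54 of 74 and in leaf for 7. A sequence related to late embryogenesis abundant proteins (LAGI01_44335) had 180.7, 25.4 and 29.0 RPKM in roots and 0.5, 0.2 and 0.2 in leaves, with replicate 1 far above the others.

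Transcription regulation sequences as a class were higher in root for 32.8% and in leaf for 19.7%. Several families had larger shares higher in root than this class. Lateral organ boundaries (LOB) factors, which in roots are known for lateral root formation, were higher in root for 45 of 48 tested sequences and in leaf for none, with a median of 2.94. Of the 48, 36 passed the filter in roots only. LBD41 (LAGI01_41032) had 264.3, 340.5 and 402.3 RPKM in roots and 0.4, 0.5 and 0.5 in leaves, a difference of 8.42 (SE 0.241, adjusted p = 1.46e-06). LBD40 had 231.1, 318.7 and 308.7 RPKM in roots and 1.3, 1.3 and 1.6 in leaves. WRKY factors, many of them regulators of defence, were higher in root for 167 of 273 and in leaf for 15. Of the 273, 89 passed the filter in roots only and 12 in leaves only. WRKY11 had 65.1, 104.5 and 114.5 RPKM in roots and 5.6, 5.8 and 8.4 in leaves, whereas WRKY70 had 15.4, 15.3 and 19.9 in leaves and 0.7, 0.5 and 0.8 in roots. NAC factors were higher in root for 96 of 169 and in leaf for 16, with ANAC087 at 11.6, 15.9 and 14.4 RPKM in roots and 1.0, 0.2 and 0.1 in leaves. MYB factors lay nearer the class, higher in root for 157 of 385 (40.8%) and in leaf for 77 (20%). Of the 385, 105 passed the filter in roots only and 56 in leaves only. MYB4 (LAGI01_48114), a repressor of phenylpropanoid genes in Arabidopsis, had 48.6, 152.0 and 197.5 RPKM in roots and 1.0, 2.4 and 2.7 in leaves. By MapMan family, EIN3-like factors of the ethylene pathway were higher in root for 24 of 31 and in leaf for 1, Aux/IAA repressors for 53 of 84 and 5, and AP2/EREBP factors for 119 of 213 and 38. Homeobox factors were higher in root for 69 of 293 and in leaf for 100.

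Lists for functions that all cells need held few calls. Of 761 tested cytosolic ribosomal proteins 8 were higher in root and 68 in leaf (median −0.52), and 685 were not called. The proteasome had 40 of 256 higher in root and 1 in leaf (median 0.42). Core histones had 10 of 86 higher in root and 2 in leaf, and actin and tubulin 9 of 147 higher in root and 24 in leaf. Each of these lists had a smaller share of calls than the 52.7% of all tested sequences. Root replicate 1 stood apart in them. Cytosolic ribosomal proteins summed to 50787.5 RPKM in root replicate 1, 27285.9 and 24731.2 in root replicates 2 and 3, and 41719.1, 53124.3 and 50388.0 in leaves. Root replicates 2 and 3 thus lay below every leaf library and replicate 1 within the leaf range. Actin and tubulin summed to 7237.1, 3050.0 and 2642.6 RPKM in roots and 4591.2, 3458.9 and 3457.0 in leaves. Few calls do not show equal levels, since small differences were often not called. Of all tested sequences with a difference of 0.5 to 1.0 (log2), 4320 of 9966 were called. Of those at −1.0 to −0.5, 2498 of 6560 were called.

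A list of enzymes, ferredoxins and transporters with known root and leaf forms had 162 tested sequences. Of these, 66 were higher in root, 78 in leaf and 18 were not called. Some of its transporters are also in the phosphate and nitrate lists above. Some names were split within themselves, such as HEMA1 of tetrapyrrole synthesis, with 5 sequences higher in root and 10 in leaf of 16. Among ferredoxins, FED A summed to 5829.4, 5335.9 and 5934.0 RPKM in leaves and 0.6, 0.4 and 0.2 in roots, and ATFD3 to 337.9, 341.7 and 285.0 in roots and 127.9, 111.6 and 103.8 in leaves. The leaf ferredoxin-NADP reductase FNR1 was higher in leaf in all 16 tested sequences (summed mean 1326 RPKM against 9.3), and the root form ATRFNR2 was higher in root in all 11 (90.4 RPKM against 17.9). Glutamate synthase showed the same division. The NADH-dependent GLT1 was higher in root in all 16 sequences of that name (220 RPKM against 66.8), and the ferredoxin-dependent GLU1 was higher in leaf in all 5 (241 against 32.1). Glutamine synthetase of the plastid, GS2, was higher in leaf in 8 of 9 sequences (1025 RPKM against 116), and the cytosolic ATGSR1 was higher in root in 7 of 10 (688 against 169). GLN1;4 was higher in root in all 3 sequences (116 RPKM in roots, 21.6 in leaves). ATGSKB6 was mixed, with 2 of 3 sequences higher in root and 1 in leaf, and its sum was lower in roots (33.4 RPKM, 62.1 in leaves). Nitrate reductase NIA1 was higher in root in all 4 sequences, at 129.4, 59.8 and 77.4 RPKM in roots and 36.2, 5.9 and 7.0 in leaves. Nitrite reductase NIR1, the next step, was not called in any of its 5 sequences, at 228.4, 106.6 and 103.7 RPKM against 101.6, 92.3 and 163.8.

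Some names had calls in both directions. Of 5927 names with at least 2 tested sequences, 892 (15%) had calls in both directions, 2100 only higher in root, 1642 only higher in leaf and 1293 none. Over all tested sequences, 30.7% were called higher in root and 22.1% higher in leaf. Whether sequences of unrelated names would go both ways as often was not tested, so the 15% is a description. In 152 names both a sequence higher in root and another higher in leaf reached a mean of 20 RPKM in its tissue, and in 60 of these both differed by 3 or more on the log2 scale. These names are those of the best hit and need not mark a single gene of lupin, and how the authors divided reads between near-identical sequences is not given in the sources used here. The following were chosen after their values were seen. Chalcone synthase TT4 had LAGI01_76186 at 435.6, 545.2 and 386.7 RPKM in roots and 0.3, 0.4 and 3.3 in leaves, and LAGI01_29302 at 296.4, 140.5 and 138.7 in leaves and 0.9, 0.2 and 0.4 in roots. The flavonol synthase FLS had LAGI01_57561 at 281.5, 157.5 and 129.2 RPKM in leaves and 0.1, 0.0 and 0.0 in roots, and LAGI01_71300 at 43.8, 49.7 and 66.0 in roots and 0.0, 0.0 and 1.0 in leaves. ATOMT1, an O-methyltransferase of phenylpropanoids, had LAGI01_40789 at 168.2, 117.8 and 121.4 RPKM in roots and LAGI01_85072 at 54.2, 206.0 and 214.8 in leaves, and neither exceeded 0.1 in the other tissue. The chitinase CHIB1 had LAGI01_42869 at 197.1, 439.9 and 391.6 RPKM in roots and LAGI01_46399 at 141.0, 147.9 and 155.5 in leaves. CLA1 had LAGI01_50667 at 119.0, 155.6 and 167.3 RPKM in roots and LAGI01_8713 at 48.0, 29.3 and 31.7 in leaves.

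**Figure D5:**
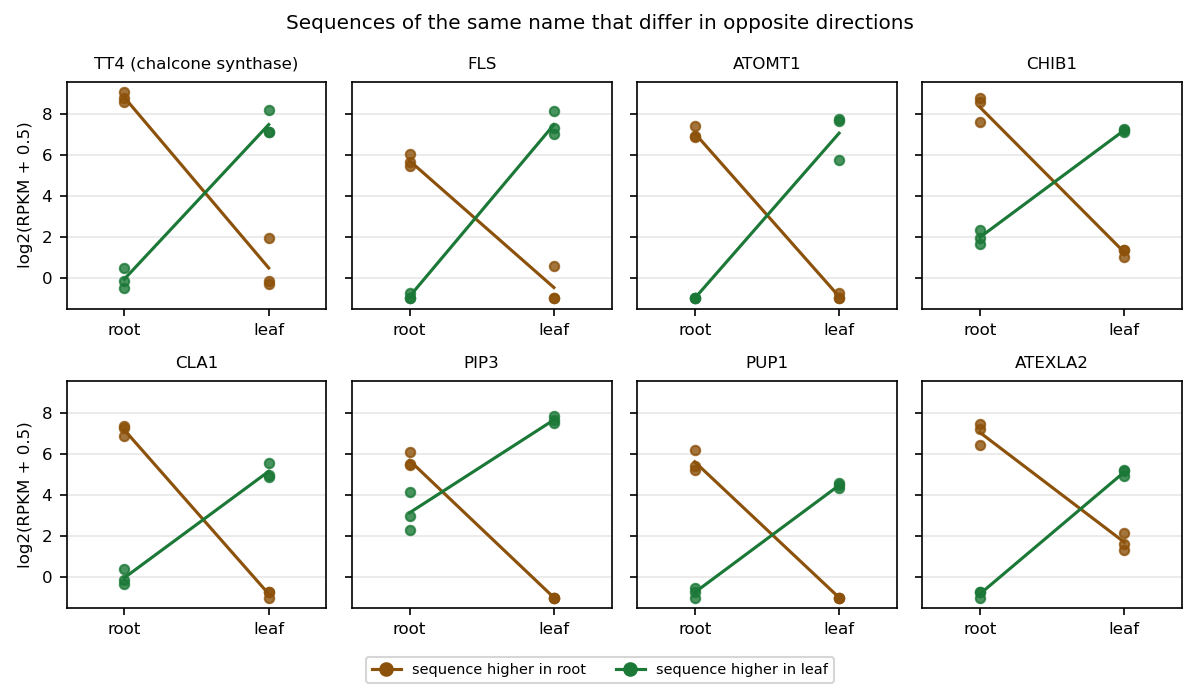
Levels, in log2(RPKM + 0.5), of 2 sequences for each of 8 names, in the 3 root and 3 leaf libraries (points) with lines joining the means. In every panel the sequence in brown lies higher in root and that in green higher in leaf, as for TT4, whose copies differ by 8.34 and −7.55.

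Tissue-restricted sequences were defined as those at 5 RPKM or more in each library of a tissue and at 0.5 or less in each library of the other. There were 1592 in root and 1949 in leaf, of which 1195 and 1268 have an informative description. The limits cut through a continuous range: 138 root-restricted sequences had their lowest root value between 5.0 and 5.4 RPKM, and 141 others with that value between 4.5 and 4.9 fell just outside. In leaf these were 130 and 127. At the other limit 140 root-restricted sequences had a highest leaf value of 0.5 and 131 fell outside at 0.6, and in leaf these were 182 and 199. Photosynthesis made up 10% of the leaf-restricted sequences against 0.68% of all tested, and unassigned sequences 43.6% against 35.2%. The miscellaneous enzyme class made up 11.6% of the root-restricted and 6.93% of the leaf-restricted sequences against 3.57% of all tested, and secondary metabolism 5.21% and 3.9% against 1.32%. The root-restricted ones also included transport (7.29% against 4.08%), stress (5.21% against 2.46%) and hormone metabolism (4.84% against 1.74%).

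Among the highest root-restricted sequences, chosen after their values were seen, were 2 lupin proteins of the PR-10 family, matched to the yellow lupin entries L18B_LUPLU (251.4, 179.3 and 175.7 RPKM in roots) and L18A_LUPLU (197.9, 207.8 and 188.5). The sugar transporters MSS1 and SFP1 had 85.3, 173.4 and 225.2 RPKM and 69.3, 204.2 and 182.7 RPKM in roots. A sequence named HPT1 (LAGI01_43184), a prenyltransferase name from tocopherol synthesis, had 59.0, 169.0 and 184.2 RPKM in roots and 0.0 in every leaf library. In leaves, RD22, a drought-responsive protein in Arabidopsis, had 844.1, 430.9 and 374.1 RPKM and was at 0.0 in every root library. GER1, a germin-like protein, had 1291.0, 2442.2 and 2327.3 RPKM in leaves and 0.2, 0.1 and 0.3 in roots.

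The libraries of deficient plants, which were not used to choose these sequences, give values for the same sequences in other plants. Leaf replicate 3 of that set stands apart, with 70.91% of its sum in 20 sequences, so values are given with and without it. Of the root-restricted sequences, 87.1% stayed at 0.5 RPKM or less in every deficient leaf library (87.6% without replicate 3), and 57% were at 5 or more in every deficient root library. Of the leaf-restricted sequences, 86.7% stayed at 0.5 or less in every deficient root library, and 50% were at 5 or more in every deficient leaf library, or 92.5% without replicate 3. LBD41 had 31.5, 349.8 and 338.4 RPKM in deficient roots and DOX1 42.3, 367.0 and 419.0, so replicate 1 was the low library there too. Over all calls, the deficient means had the same sign for 99.3% of those higher in root and 94.8% of those higher in leaf (97.9% and 98.6% without leaf replicate 3). The difference between tissues itself differed between the supplies for 14 sequences (0.0185% of those tested, limma interaction at an adjusted p below 0.05), or 10 (0.0132%) without leaf replicate 3. None of the 277 named sequences was among the 14.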

How the data were processed

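Messenger RNA of roots and leaves was sequenced as single reads of 76 cycles on an Illumina Genome Analyzer II, per the labels' protocols. The authors deposited 1 value per sequence and library, taken here to be RPKM from its scale, since neither labels nor header name the unit. Bowtie is listed in the submitters' processing notes with no role. How reads were counted, how reads matching several sequences were handled, and the number of reads are not stated in the labels or headers, so depth is unknown and no counting interval is given. The authors' annotation pairs each sequence with a best-hit description and a MapMan class, per the file headers. An informative description was found for 71.6% of the tested sequences. No nucleotide sequence or coordinate is printed, as none was used here.

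Values were converted to log2(RPKM + 0.5), and sequences at 1 or more in at least 3 of the 6 libraries were fitted by limma 3.58.1 (R 4.3.3) with tissue as the only term, a prior variance that follows the mean level and Benjamini-Hochberg adjustment over all 75717. Fold changes on this scale understate the change of low sequences. Tables and figures were made in Python 3.11.15. On simulated data for this comparison (75717 sequences), the fit called 90.9% of 66 sequences given an 8-fold change. It called 55.2% of 67 given a 4-fold change and 1.5% of 67 given a 2-fold change, and 5 without any change. Only 200 sequences were changed in the simulation, so its adjusted threshold was stricter than in the data, where 39934 were called. These shares therefore do not give the power in the data, where 5169 of 6025 sequences at 1.0 to 1.5 (log2) were called.

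Named sequences are the 10 largest non-overlapping differences in each direction with a mean of at least 20 RPKM, the 8 most abundant of each tissue, and the 3 highest called members of each list and direction, each with an informative description and once per description. Others are said to be chosen after their values were seen. The comparison and the 50 gene lists were chosen with earlier results of these data known. Of the lists, 12 were adapted after descriptions were read and 7 were added after values were seen.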

Additional observations from a re-analysis of the deposited data

How the results depend on the processing

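Of 277 named sequences, 177 kept their direction and side of the threshold in each of the 21 alternatives in which they were tested. With a filter of 5 RPKM only 258 of them were tested. The calls numbered 11413 in root and 8125 in leaf (19538 in all) with a filter of 5 RPKM, 10675 and 9098 (19773) against a minimum change of 2-fold, and 7839 and 7004 (14843) with values summed per description, which tests fewer features. Leaving out each replicate gave 18411 to 24004 in root, 13922 to 18211 in leaf and 32333 to 42215 in all. The median difference was 0.05 with TMM, 0.06 with medians of ratios, 0.05 with quantiles, 0.24 and 0.17 with pseudocounts of 0.1 and 1, 0.12 without a filter, 0.27 with the filter of 5, 0.15 with barcoded libraries, 0.09 summed per description, and 0.16 to 0.23 with each replicate left out. Requiring 0 in the lower tissue left 518 root-restricted and 679 leaf-restricted sequences, and requiring 10 RPKM in the higher tissue left 791 and 1177. Deviations from the tissue mean correlated at 0.385, 0.088 and 0.263 between same-numbered root and leaf libraries. Between replicates 2 and 3 across tissues they correlated at 0.317 and 0.119. Replicate 1 of either tissue against replicate 2 or 3 of the other gave −0.352 to −0.13. Replicate 1 thus deviated alike in both tissues, which the fit with tissue only leaves in its spread. The numbers were not taken as pairs. With a replicate block there were 24800 calls in root, 17439 in leaf and 36 interaction calls, against 14 without it.

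Summing all sequences of a description reversed 34 named sequences, whose own copy runs against the sum of its name. The sums (log2, root minus leaf) were below 0 for transketolase (-1.67), glycolate oxidase (-5.12), glycine cleavage H (-3.29), TED4 (-0.10), HEMA1 (-1.48), ribosomal L12 (-0.62), KAN (-0.30), FLS (-0.24), RPL19C (-0.84) and RPL19B (-0.37). They were above 0 for ATNRT1:2 (1.47), PIP2A (1.46), RHD2 (3.36), a peroxidase (2.62), PER20 (0.01), ATOMT1 (0.64), an O-methyltransferase (0.44), TT4 (2.58), MtN3 (1.20), a nodulin (2.06), WRKY33 (2.40), MYB4 (2.41), ANAC083 (0.50), CHIB1 (2.65), an LEA protein (1.21), ACT7 (0.11), pyruvate kinase (1.20), AOC3 (0.29), a universal stress protein (1.29), a DNA-binding factor (0.39), an AP2 factor (0.97), ATTPS6 (0.70), ATTPS1 (0.10) and ATGSTU25 (2.25). EF-1-alpha, not called, stood at 0.34 with quantiles, and the cause was not tested. The count-based alternative was not run, since the values are not counts.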
